A study of Mus musculus with 12 samples.

Results

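Amino acid transporters are membrane proteins that carry amino acids into, out of or between the compartments of a cell. The genes described here are all those in the deposited table whose mouse symbol starts with Slc1a, Slc3a, Slc6a, Slc7a, Slc36a, Slc38a or Slc43a, which gave 42 of the 17523 genes listed. Of these, 36 were tested, among 15587 genes with 5 or more normalized counts in 3 libraries or more. A further 25 genes of RefSeq match these name stems and were not analysed here. The name stems also take in carriers of other molecules, such as Slc6a6 (taurine), Slc6a8 (creatine), Slc6a4 (serotonin) and Slc43a3 (purine bases), and Slc7a6os, which is not a transporter.

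The RNA came from CD4+ T cells of the spleen of unimmunized Gr/fr mice of both sexes, 2 to 3 months old, on a C57BL/6 background. All groups carried the same alleles: a Csf2 gene that also encodes iCre and BFP, and an eYFP gene in Rosa26 behind a stop cassette that Cre removes, so that YFP marks cells that express GM-CSF or did so earlier. The 4 populations compared were sorted by flow cytometry, each with 3 libraries: YFP- naive, YFP+ naive (both CD44-), YFP- TEM and YFP+ TEM (effector memory cells, both CD44hi). YFP is a record of past Csf2 transcription and does not show that a sorted cell was making GM-CSF when it was sorted. Cells of 3 mice were sorted per the study's methods, and the labels do not tie a library to a mouse. P-values measure the spread between these libraries.

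Resting T cells take up few amino acids. Upon activation they raise leucine, glutamine, arginine and cystine uptake, and leucine and arginine then act through lysosomal sensors to turn on the growth kinase complex mTORC1. Many of these carriers are built from parts: the heavy chain Slc3a2 (CD98) holds a light chain of the Slc7 family at the cell surface, and the light chain decides which amino acid passes. A shortage of amino acids is sensed by the kinase Gcn2 (Eif2ak4), after which the transcription factor Atf4 raises several transporters through C/EBP-ATF response elements in their genes.

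Values are normalized counts, which are reads on a gene divided by the size factor of the library. Between 40974124 and 57822269 reads per library fell on genes, and the 42 members held 0.124 to 0.169% of them. The sorting marker Cd44 matched the labels, at 2334 to 3372 in naive and 21778 to 29383 in TEM libraries. Cd4 was at 36078 to 67471 in all 12 libraries. YFP+ naive replicate 2 stood apart, with Csf1r at 1601, Jchain at 723 and Hbb-bs at 1087 normalized counts, transcripts of macrophages, plasma cells and red blood cells. It was also the highest of the 6 naive libraries for Slc7a2, Slc7a7, Slc7a8, Slc1a3 and Slc38a5, so calls that change without it are given both ways. Every TEM library held transcripts of dendritic cells and macrophages, and YFP- TEM libraries held more of them than YFP+ TEM libraries, with values given beside the results they move with. In sorted bulk samples a change in the share of a cell type and a change in RNA per cell cannot be told apart.

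Per kilobase of exon, the most abundant member in all 4 populations was Slc1a5, which imports glutamine and other neutral amino acids in exchange for others. Its level was 2293 ± 155 (SD, n = 3) normalized counts per kb in YFP- naive, 2435 ± 119 in YFP+ naive, 3358 ± 255 in YFP- TEM and 3177 ± 409 in YFP+ TEM cells. In YFP- naive cells the next were Slc38a2, a sodium-coupled importer of small neutral amino acids (2007 ± 108), Slc3a2 (1543 ± 85.2), the taurine carrier Slc6a6 (1152 ± 101) and Slc7a5, the leucine carrier (1139 ± 42.2). Slc6a6 and Slc7a5 did not differ beyond their spread there, while Slc1a5, Slc38a2 and Slc3a2 each lay apart from their neighbours. In YFP- TEM cells Slc3a2 stood second (1521 ± 106), and Slc38a10 (1320.2 ± 51.7), Slc38a2 (1292 ± 318), Slc38a1 (1240.1 ± 80.96) and Slc6a6 (1175 ± 155) followed within each other's spread. Slc7a5 moved from the fifth place in YFP- naive and the fourth in YFP+ naive cells to the ninth and the tenth in YFP- and YFP+ TEM cells. At the other end, 6 members were too low to test (Slc1a1, Slc1a6, Slc38a8, Slc6a4, Slc6a7 and Slc6a20a), with at most 12 reads in any library.

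TEM cells were compared with naive cells first, averaged over YFP status, to find which carriers go with the memory state. Of the 36 tested members, 15 were higher in TEM cells (41.7%), where 34.2% of all tested genes were higher. A further 7 were lower (19.4%), where 25.4% of all tested genes were lower. The median log2 fold change was 0.44 over the tested members and 0.039 over all tested genes. Quantile scaling moved the latter to -0.16 and the split of called members to 13 higher and 11 lower. The tests are limma's, on log2 of the normalized count plus 1, with p-values adjusted over all 15587 genes, and a gene was called at an adjusted p of 0.05 or less.

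**Figure D1:**
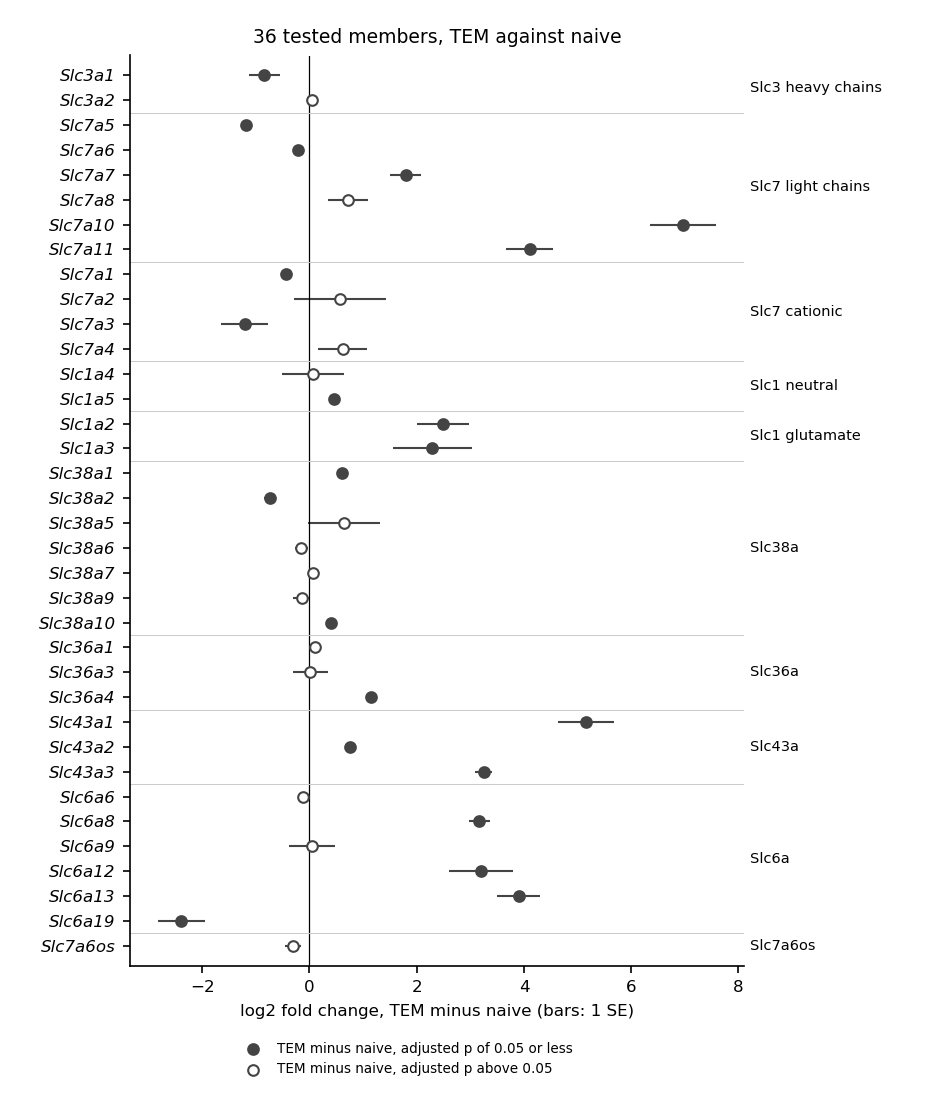
Log2 fold change between TEM and naive cells of the 36 tested members (x axis), grouped by role, with bars of 1 SE and filled points for an adjusted p of 0.05 or less. The 15 filled points to the right reach 6.97 for Slc7a10, and the 7 to the left reach -2.39 for Slc6a19.

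The heavy chain Slc3a2 was at 4917, 4402 and 4666 normalized counts in YFP- naive and 5239.8, 4614 and 4876 in YFP+ naive libraries, and at 4959, 4474 and 4356 in YFP- TEM and 6377, 4689 and 4834 in YFP+ TEM libraries. The ranges overlapped, and the difference between TEM and naive cells did not pass the test (log2 fold change 0.038, SE 0.079, adjusted p = 0.695). Of its 6 light chains, 3 were higher and 2 lower in TEM cells. Slc7a5, which brings in leucine, methionine and other large neutral amino acids, was at 3986, 3866 and 4161 in YFP- naive and 5074, 4644 and 4677 in YFP+ naive libraries. In TEM cells it was at 2407, 2227 and 2346 in YFP- and 1852, 1655 and 1356 in YFP+ libraries. All 6 TEM libraries lay below all 6 naive ones, a 2.26-fold difference (log2 fold change -1.18, SE 0.072, adjusted p = 3.12e-08). Slc7a6, an exchanger of cationic for neutral amino acids, was slightly lower in TEM cells, at 1449.8 to 1861 against 1777 to 2189 (log2 fold change -0.22, SE 0.080, adjusted p = 0.0296). That call was lost when any 1 of 6 libraries was left out, with adjusted p from 0.0524 (without YFP- TEM replicate 1) to 0.0729 (without YFP+ TEM replicate 1), the others being replicate 2 of both naive populations, YFP- TEM replicate 3 and YFP+ TEM replicate 3.

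Of the 4 light chains that are rare in naive cells, 3 rose and Slc7a8 did not pass the test. Slc7a10, which exchanges small neutral amino acids such as serine, alanine and glycine, was at 0, 5.30 and 0 in YFP- naive and 3.71, 10.8 and 0 in YFP+ naive libraries. In TEM cells it reached 600.4, 502 and 337 in YFP- and 197, 404 and 163 in YFP+ libraries. The lowest TEM library was over 10 times the highest naive one (log2 fold change 6.97, SE 0.62, adjusted p = 8.58e-07), although the fitted size depends on the 1 added to values that include zeros. The gene overlaps Lrp3, which was at 0 in every naive library and at 7.02 ± 3.17 in YFP+ TEM and 14.97 ± 2.79 in YFP- TEM cells. Slc7a11 takes up cystine in exchange for glutamate and feeds glutathione synthesis. Its naive libraries were at 0, 2.12 and 4.61 (YFP-) and 2.47, 3.94 and 0.930 (YFP+), and its TEM libraries at 198, 105 and 199 (YFP-) and 19.2, 11.4 and 13.3 (YFP+). No TEM library fell within the naive range (log2 fold change 4.11, SE 0.44, adjusted p = 5.16e-06). Slc7a7, another exchanger of cationic for neutral amino acids, also rose (log2 fold change 1.79, SE 0.29, adjusted p = 1.48e-04). YFP+ naive replicate 2 lay at 89.5, above all 3 YFP+ TEM libraries, and the log2 fold change was 2.01 without it. Slc7a8, a further leucine carrier, was at 8.49 to 58.05 in naive and 15.3 to 77.8 in TEM libraries (adjusted p = 0.111), and it was called higher without YFP+ naive replicate 2 (log2 fold change 0.99, adjusted p = 0.0201).

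Counted per kilobase, the 6 light chains of Slc3a2 summed to 1658 ± 31.5 normalized counts in YFP- naive, 1917 ± 53.2 in YFP+ naive, 1445 ± 68.2 in YFP- TEM and 1054 ± 146 in YFP+ TEM cells. Slc7a5 made up 68.7 ± 2.63% of that sum in YFP- naive and 71.2 ± 3.56% in YFP+ naive cells, against 45.8 ± 2.15% and 43.9 ± 5.43% in YFP- and YFP+ TEM cells. Slc7a10 went from 0.05004 ± 0.0867% in YFP- naive to 15.6 ± 3.69% in YFP- TEM cells. Slc3a2 itself was at 1543 ± 85.2 per kb in YFP- naive and 1521 ± 106 in YFP- TEM cells.

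**Figure D2:**
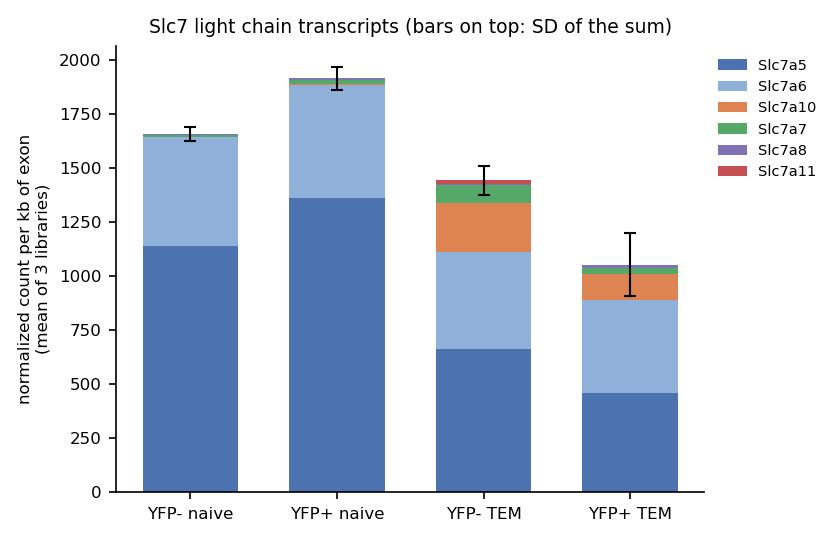
Light chain transcripts per kilobase of exon (y axis, mean of 3 libraries) in the 4 populations, stacked by gene, with bars of 1 SD of the sum. Slc7a5 and Slc7a6 fill the naive columns, while Slc7a10 and Slc7a7 are visible in the TEM columns, most in YFP- TEM.

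Among carriers of cationic amino acids, Slc7a1, the main arginine importer of many cells, was lower in TEM cells, at 4304, 4563 and 4116 (YFP-) and 4630.4, 4729 and 3967 (YFP+), against 6289, 4966 and 5514 and 7092, 6169 and 5903 in naive cells. The naive and TEM ranges did not overlap, with a 1.36-fold difference (log2 fold change -0.44, SE 0.075, adjusted p = 2.32e-04). The low Slc7a3, a related arginine importer, was also called lower, at 2.04 to 11.4 against 8.66 to 35.4 (log2 fold change -1.21, SE 0.44, adjusted p = 0.0312). This call was lost without any 1 of YFP- naive replicates 1 and 2, YFP+ naive replicate 2, YFP- TEM replicate 3 and YFP+ TEM replicates 1 and 3, with adjusted p of 0.0618 to 0.0775. The orphan Slc7a4 did not pass the test. Nor did Slc7a2, an arginine importer at 36.4 in YFP+ naive replicate 2 and at most 15.2 in every other library, until that library was left out (log2 fold change 1.44, adjusted p = 0.0398, against 0.57 and 0.593 with it). The heavy chain Slc3a1, whose usual partner is a kidney light chain, was at 19.2 to 57.4 in TEM and 38.01 to 71.8 in naive libraries (log2 fold change -0.84, SE 0.29, adjusted p = 0.0251). It lost its call without any 1 of YFP- naive replicates 2 and 3, YFP+ naive replicate 2, YFP- TEM replicate 2 and YFP+ TEM replicate 1, with adjusted p from just over 0.05 to 0.0645. Slc3a1, Slc7a3, Slc38a6 and Slc43a2 overlap other genes of the deposited data (Prepl, Snx12, Trmt5 and Mir3971). Further members overlap annotated genes without values there, such as Slc36a3 (Gm31688 and Slc36a3os) and Slc43a1 (D930003E18Rik). Whether reads were counted by strand is not given in the sources used here.

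The Slc1 family holds neutral amino acid exchangers and high-affinity glutamate importers. Slc1a5 rose 1.38-fold in TEM cells. It was at 9185, 10030.2 and 8631 in YFP- TEM and 8436, 10043 and 7865 in YFP+ TEM libraries, all above the naive range of 6003 to 7048 (log2 fold change 0.46, SE 0.070, adjusted p = 9.49e-05). Slc1a4, the related serine and alanine exchanger, was at 143, 194 and 144 in YFP- naive and 157, 240.1 and 162 in YFP+ naive libraries. In TEM cells it was at 176, 500.2 and 90.7 in YFP- and 109, 770.5 and 47.5 in YFP+ libraries. Replicate 2 was the highest in each of the 4 populations, and the groups overlapped, with no difference past the test (adjusted p = 0.928). The log2 fold change was 0.069 with all libraries and -0.66 without replicate 2 in all populations. The glutamate importers Slc1a2 and Slc1a3 were at the edge of detection. Slc1a2 had 0 to 3 reads in each naive library and 4 to 16 reads in each TEM library, a rise that passed the test (adjusted p = 7.50e-04). Slc1a3 was at 4.14 to 30.3 in TEM libraries and at 3.71 or less in 5 naive libraries, with 30.5 in YFP+ naive replicate 2 (log2 fold change 2.29, SE 0.74, adjusted p = 0.0174). Without that library the log2 fold change of Slc1a3 was 2.93. The calls of Slc1a2 and Slc1a3 were lost under quantile scaling (adjusted p = 0.148 and 0.233).

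Of the 7 tested members of the Slc38 family, which couples neutral amino acids to sodium, 2 were higher, 1 was lower and 4 did not pass the test. Slc38a1 and Slc38a2 have near-identical substrates, glutamine and alanine among them, and went in opposite directions. Slc38a1 was at 6858 to 10809 in naive and 12336 to 14074 in TEM libraries, a 1.53-fold rise (log2 fold change 0.61, SE 0.074, adjusted p = 1.52e-05). Slc38a2, known to be induced when amino acids run short, was at 9152, 9927 and 8985 in YFP- naive and 8063, 10239 and 9807 in YFP+ naive libraries. It was at 5231, 5107 and 7731 in YFP- TEM and 4572, 5688 and 5736 in YFP+ TEM libraries, a 1.67-fold fall (log2 fold change -0.74, SE 0.11, adjusted p = 7.80e-05). Neither gene's TEM range overlapped its naive range. Slc38a10 was at 4978 to 6714 in naive and 6898 to 9074 in TEM libraries, again a rise (log2 fold change 0.41, SE 0.078, adjusted p = 5.93e-04). Slc38a9, the lysosomal arginine sensor of mTORC1, was at 712 to 1277 and 682 to 1195 and did not pass the test (adjusted p = 0.429), nor did the lysosomal glutamine exporter Slc38a7 (0.421) or Slc38a6 (0.342). Slc38a5, a glutamine and glycine exchanger, was at 12.8 in YFP+ naive replicate 2 and at most 9.10 in every other library. Without that library it was called higher in TEM than in naive cells (log2 fold change 1.27, adjusted p = 0.0391) and in YFP+ than in YFP- TEM cells (2.36, 0.0442), neither of which passed the test with it.

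The Slc36 family couples small amino acids to protons. Slc36a1, found on lysosomes, was at 1311 to 2107 in naive and 1564 to 1838 in TEM libraries and did not pass the test (adjusted p = 0.456). Slc36a4 was at 248, 292 and 239.6 and 256, 265 and 256 in YFP- and YFP+ naive libraries, and at 675, 691 and 610.2 and 494, 602 and 431 in YFP- and YFP+ TEM libraries. Every TEM library exceeded every naive one, by 2.22-fold on average (log2 fold change 1.15, SE 0.10, adjusted p = 9.61e-07).

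All 3 members of the Slc43 family were higher in TEM cells. Slc43a1 and Slc43a2 let large neutral amino acids such as leucine pass down their gradient. Slc43a1 was at 36.9, 59.4 and 11.5 in YFP- naive and 12.4, 14.8 and 0.930 in YFP+ naive libraries, and at 519, 723 and 578 in YFP- TEM and 331, 781 and 417 in YFP+ TEM libraries. It rose from a low level without overlap (log2 fold change 5.15, SE 0.52, adjusted p = 2.98e-06). Slc43a2, the more abundant of them, was at 2564 to 3173 in naive and 3827 to 6901 in TEM libraries, a 1.70-fold rise (log2 fold change 0.76, SE 0.10, adjusted p = 2.95e-05). Slc43a3 was at 55.8 to 108 in naive libraries and at 769, 733 and 922 in YFP- and 473, 486 and 535 in YFP+ TEM libraries, 9.54-fold higher in TEM cells (log2 fold change 3.25, SE 0.16, adjusted p = 4.35e-09).

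Of the 6 tested members of the Slc6 family, sodium- and chloride-coupled carriers best known from the brain and kidney, 3 were higher and 1 was lower. The creatine carrier Slc6a8 was at 19.6, 12.7 and 18.4 in YFP- naive and 21.02, 32.5 and 26.97 in YFP+ naive libraries. It was at 153, 200.1 and 195 in YFP- TEM and 181, 251 and 214 in YFP+ TEM libraries, 8.99-fold higher and without overlap (log2 fold change 3.17, SE 0.20, adjusted p = 4.34e-08). The betaine and GABA carriers Slc6a12 (log2 fold change 3.20, SE 0.59, adjusted p = 4.95e-04) and Slc6a13 (log2 fold change 3.90, SE 0.40, adjusted p = 3.39e-06) rose from at most 7 normalized counts in any naive library. Slc6a19, a neutral amino acid carrier of gut and kidney, fell, with 4.65 to 37.1 in naive and 0 to 4.07 in TEM libraries (log2 fold change -2.39, SE 0.43, adjusted p = 4.27e-04). The taurine carrier Slc6a6, at 6416 to 8148 in naive and 5728 to 8226 in TEM libraries, did not pass the test (adjusted p = 0.1996), and passed it with the replicate number as a block (0.0142). The glycine carrier Slc6a9 had at most 27.4 normalized counts in any library. Slc7a6os, named for its place on the opposite strand of Slc7a6, was at 979 to 1791 in naive and 873 to 1215 in TEM libraries (adjusted p = 0.109, and 0.0208 with the block).

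**Figure D3:**
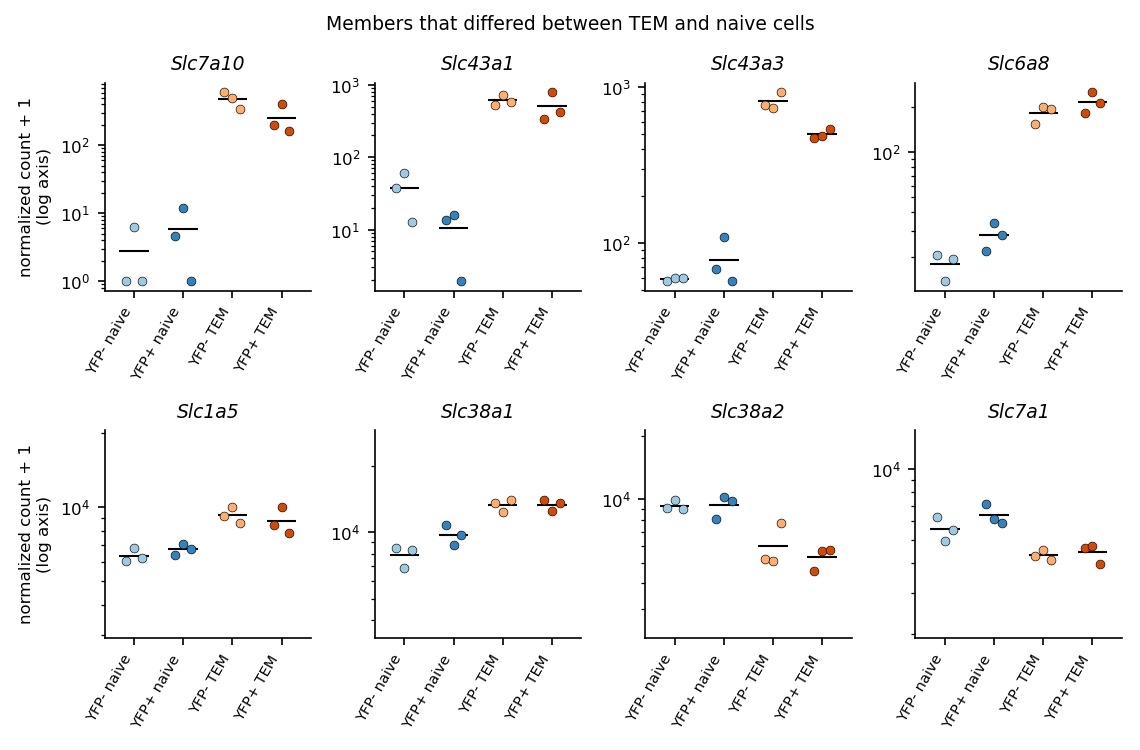
Normalized counts plus 1 (log axis, with its own range in each panel) of 8 members in the 12 libraries, points for libraries and lines for means of 3. Slc7a10, Slc43a1, Slc43a3 and Slc6a8 rise by more than 8-fold from naive to TEM cells, Slc1a5 and Slc38a1 by less than 2-fold, and Slc38a2 and Slc7a1 fall.

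Transcripts of other cells and of cycling cells were also higher in TEM than in naive libraries. All 5 conventional dendritic cell markers were higher, with sums of 59.9 to 118 in YFP- naive, 65.1 to 284 in YFP+ naive, 7545 to 15464 in YFP- TEM and 446 to 948 in YFP+ TEM libraries. Higher too, averaged over YFP status, were 7 of 8 plasmacytoid dendritic cell markers, 4 of 6 macrophage and neutrophil markers and all 3 NK cell markers. The remaining plasmacytoid marker, Pacsin1, was called lower in TEM cells (log2 fold change -0.39, adjusted p = 0.00547 in limma). The NK marker Ncr1 was at 0 in every YFP- TEM library and at 35.4, 6.21 and 56.1 in YFP+ TEM libraries, so its rise is that of YFP+ TEM cells. The macrophage and neutrophil sums were 202 to 782 and 309 to 3397 in YFP- and YFP+ naive libraries, and 6105 to 11742 and 1801 to 3477 in YFP- and YFP+ TEM libraries. All 3 cycling markers rose, from sums of 559 to 714 and 805 to 1184 in YFP- and YFP+ naive to 22179.9 to 32126 and 13574 to 18509 in YFP- and YFP+ TEM libraries, as did all 4 regulatory T cell markers. The part of these cells in the differences between TEM and naive cells, such as those of Slc7a10, Slc7a11, Slc7a7, Slc43a3 and Slc6a12, was not tested.

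YFP+ and YFP- cells were then compared within the TEM population, to find which carriers go with a history of GM-CSF expression. In limma's main fit, which does not pair the libraries by replicate number, none of the 36 tested members was higher in YFP+ TEM cells. There 2.3% of all tested genes were higher at an adjusted p of 0.05 or less. Limma's unadjusted p was under 0.05 for 2 members with a higher and 10 with a lower value. The share of all tested genes at that unadjusted p was not computed. Lower in YFP+ TEM cells were 5 members (13.9%), where 4.67% of all tested genes were lower: Slc7a5, Slc7a7, Slc7a11, Slc36a3 and Slc6a12. On the recovered reads edgeR called the same 5 lower and none higher. DESeq2 called these 5, Slc43a3 and Slc6a13 lower, and Slc7a8 higher. With the replicate number as a block, the fit that uses the pairing, 7 members were lower and 2 were higher. With quantile scaling 6 were lower and 1 was higher. In GRCm38 the 5 genes lie at chr8:121881146-121907686 (Slc7a5), chr14:54369442-54420068 (Slc7a7), chr3:50364936-50499087 (Slc7a11), chr11:55124815-55151722 (Slc36a3) and chr6:121342574-121365773 (Slc6a12).

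Slc7a11 was at 198, 105 and 199 in YFP- TEM and 19.2, 11.4 and 13.3 in YFP+ TEM libraries, 10.6-fold lower on the log scale (log2 fold change -3.40, SE 0.63, adjusted p = 0.00482). The lowest YFP- library was over 5 times the highest YFP+ library, and all 3 YFP+ TEM libraries still exceeded all 6 naive ones. The call held without any 1 library and was lost with 0.1 in place of 1 added before the log (adjusted p = 0.130). Slc7a7 was at 194, 193 and 269.9 in YFP- TEM and 74.8, 63.2 and 78.9 in YFP+ TEM libraries, which did not overlap (log2 fold change -1.57, SE 0.40, adjusted p = 0.0339). Leaving out any 1 of the 6 TEM libraries raised its adjusted p above 0.05, to between 0.0738 (without YFP- TEM replicate 2) and 0.158 (without YFP- TEM replicate 3). Slc7a7 overlaps Oxa1l, which was level in both populations (2922 ± 64.99 and 2838 ± 139).

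These 2 light chain genes were the only ones among the 32 members with a promoter window in RefSeq to hold the core of a C/EBP-ATF response element, TGATGNAA on either strand, in the 250 bases before a start site. Such a core was in 3.45% of all 32851 windows of that length, and in 3 of the members' 47. A match describes the letters and is not a binding site. The sequences are shown because both genes were lower in YFP+ TEM cells. They run 5′ to 3′ on the minus strand of GRCm38.p6, without bases that GENCODE M21 annotates as exon, and capitals mark the core. Slc7a11 holds it 66 and, on the other strand, 47 bases before its start site. Slc7a7 holds it 141 bases before its most upstream start site, in the window shown. A further match lies 243 bases before its next start site, at and past the upstream one, and is not shown.
Slc7a11, chr3:50443615-50443863: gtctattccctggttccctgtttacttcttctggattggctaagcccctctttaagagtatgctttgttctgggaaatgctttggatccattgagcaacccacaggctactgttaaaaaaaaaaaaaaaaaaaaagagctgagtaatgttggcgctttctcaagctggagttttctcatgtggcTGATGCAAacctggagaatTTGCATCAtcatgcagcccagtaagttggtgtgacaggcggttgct
Slc7a7, chr14:54417945-54418194: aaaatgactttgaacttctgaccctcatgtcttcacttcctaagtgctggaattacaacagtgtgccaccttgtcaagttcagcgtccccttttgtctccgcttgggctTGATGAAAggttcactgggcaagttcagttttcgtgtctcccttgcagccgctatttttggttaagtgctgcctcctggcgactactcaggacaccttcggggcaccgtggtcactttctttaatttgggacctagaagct
Slc36a3 and Slc6a12 had no match in their windows, and Slc7a5 had no entry. A second motif searched, the E-box CACGTG, was in the windows of 5 members, Slc1a6, Slc36a1, Slc38a5, Slc38a7 and Slc43a1, and in 6.02% of all windows.

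Slc7a5 fell further from its already lower TEM level. YFP- TEM libraries were at 2407, 2227 and 2346 and YFP+ TEM libraries at 1852, 1655 and 1356, 1.45-fold lower (log2 fold change -0.53, SE 0.10, adjusted p = 0.00588). The groups did not overlap, and the call held without any 1 library. Its partner Slc3a2 did not follow (log2 fold change 0.19, SE 0.11, adjusted p = 0.449). Slc7a6 (adjusted p = 0.841) and Slc7a10 (0.696), whose YFP- and YFP+ TEM values overlapped, did not pass the test. Slc7a8 was higher in YFP+ TEM cells in every library, at 77.8, 61.1 and 33.3 against 18.9, 15.6 and 15.3. Its difference missed the threshold in limma (log2 fold change 1.66, SE 0.52, adjusted p = 0.0841), and passed it with the replicate block (0.0470), with the 6 TEM libraries alone (0.0406), in DESeq2 (0.0292), with quantile scaling (0.0225) and without YFP+ naive replicate 2 (0.0348).

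Slc36a3, an orphan member of the proton-coupled family known mainly from testis, was at 22.1, 25.2 and 33.6 in YFP- TEM and 6.07, 2.07 and 3.80 in YFP+ TEM libraries. Every YFP+ TEM library was also below every naive library (7.43 to 14.9), so YFP- and YFP+ TEM cells lay on either side of naive cells. The fall was called in all 24 alternatives (log2 fold change -2.55, SE 0.45, adjusted p = 0.00379). Slc6a12 was at 77.9, 42.98 and 176 in YFP- TEM and 13.1, 2.07 and 12.4 in YFP+ TEM libraries, without overlap (log2 fold change -3.35, SE 0.84, adjusted p = 0.0298). It lost its call without YFP- TEM replicate 1 (adjusted p = 0.0848) or 3 (0.154), and without YFP+ TEM replicate 2 (0.102) or 3 (0.0511). The call was also lost with 0.1 added before the log (0.208), with no variance trend (0.0525) and without replicate 2 of all populations (0.0705). The neighbour in function of Slc6a12, Slc6a13, was at 55.8, 51.1 and 88.6 and 22.2, 12.4 and 19.01, also without overlap, and missed the threshold (log2 fold change -1.80, SE 0.57, adjusted p = 0.0870) in limma. It passed it with the replicate block (0.0386), with 5 added before the log, with the 6 TEM libraries alone and in DESeq2.

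Of other carriers, Slc1a5 (adjusted p = 0.795), Slc38a1 (0.991), Slc38a2 (0.740), Slc7a1 (0.944), Slc36a1 (0.911) and Slc6a8 (0.807) did not pass the test between YFP+ and YFP- TEM cells. Slc38a9 was at 1107, 809 and 1195 in YFP- TEM and 682, 800.5 and 717 in YFP+ TEM libraries and did not pass it (log2 fold change -0.48, SE 0.22, adjusted p = 0.280), but was called lower without replicate 2 of all populations (-0.72, 0.0175). With the replicate block, Slc38a10 was called higher in YFP+ TEM cells (log2 fold change 0.21, adjusted p = 0.0383) and Slc6a6 lower (-0.21, 0.0272). Slc43a3 was lower in every YFP+ TEM library (log2 fold change -0.69, SE 0.22), with an adjusted p of 0.0980 that fell to 0.0224 without YFP+ naive replicate 2, to 0.0140 with the 6 TEM libraries alone and to 0.00809 in DESeq2. Slc43a2 was called lower without YFP- TEM replicate 2 (adjusted p = 0.0315 against 0.199).

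**Figure D4:**
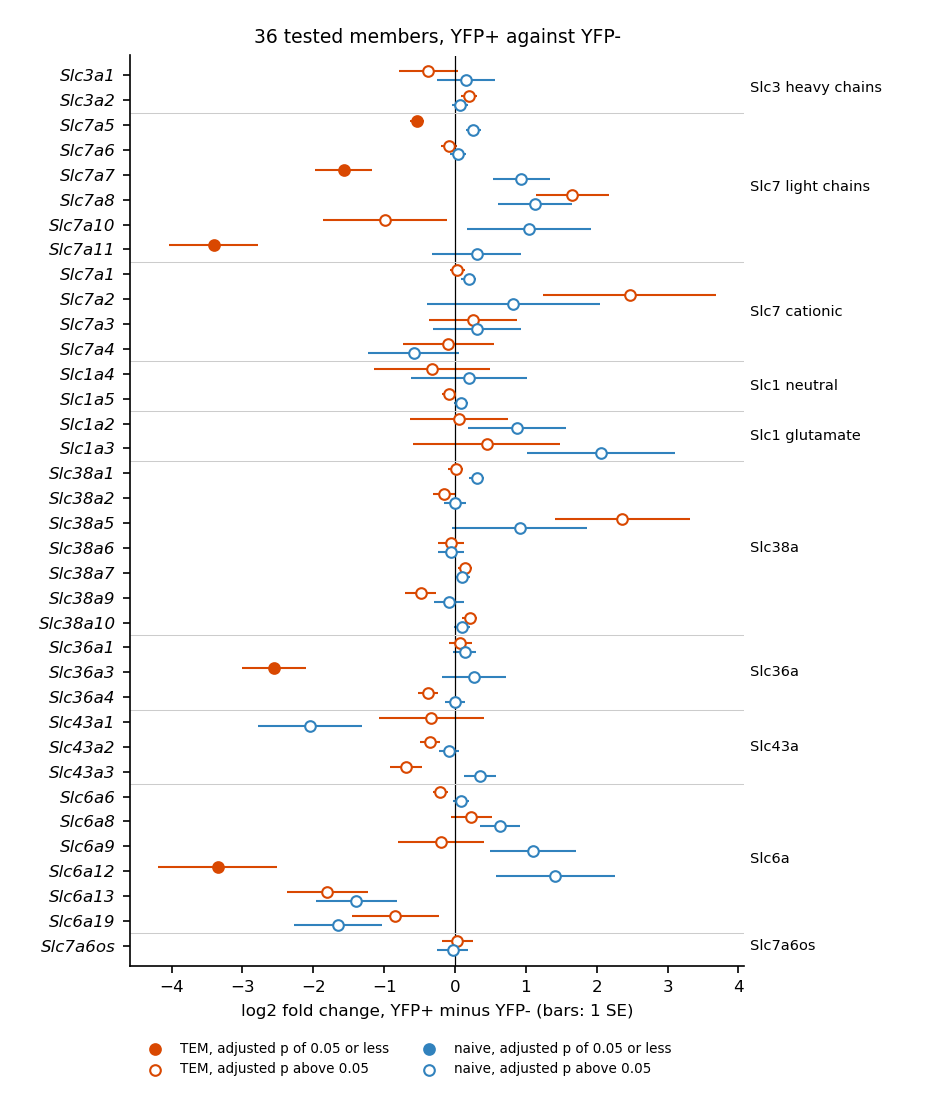
Log2 fold change between YFP+ and YFP- cells of the 36 tested members (x axis) within TEM cells (orange) and within naive cells (blue), with bars of 1 SE and filled points for an adjusted p of 0.05 or less. The 5 filled points are all orange and to the left, from -0.53 for Slc7a5 to -3.40 for Slc7a11.

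Beside the fall of these members, transcripts of several other cell types differed between YFP- and YFP+ TEM cells. Of 8 plasmacytoid dendritic cell markers, 7 were lower in YFP+ than in YFP- TEM cells, with a summed level of 11436 to 17306 normalized counts in YFP- TEM, 4448 to 6202 in YFP+ TEM and 5839 to 7049 in naive libraries, most of the naive sum being Pacsin1. Siglech, the defining marker, was at 3367, 1412 and 3263 in YFP- TEM and 118, 26.9 and 55.1 in YFP+ TEM libraries. Of 5 conventional dendritic cell markers 4 were lower, with sums of 7545 to 15464 and 446 to 948, and of 6 macrophage and neutrophil markers 2, with sums of 6105 to 11742 and 1801 to 3477. Of the macrophage and neutrophil list, S100a8 and S100a9 went the other way. S100a8 was at 30.3, 7.25 and 48.5 in YFP+ TEM and at most 1.48 in YFP- TEM libraries. S100a9 was at 41.5, 16.6 and 89.4 against at most 4.45, and neither passed limma's test (adjusted p = 0.103 and 0.128). Both CD8 T cell markers were lower in YFP+ TEM cells (sums 685 to 1490.3 and 187 to 373), as were 1 of 4 regulatory T cell markers (Foxp3, sums 43713 to 60847 and 37048 to 41236) and 1 of 3 cycling markers (Top2a, sums 22179.9 to 32126 and 13574 to 18509). Higher in YFP+ TEM cells were 2 of 3 NK cell markers (sums 602 to 786 and 1336 to 2032) and 1 of 6 B cell markers (sums 431 to 557 and 354 to 953). No CD4 T cell, plasma cell or erythroid marker differed. The part of these cells in the values of Slc7a11, Slc7a7, Slc6a12, Slc36a3 and Slc7a5 was not tested.

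**Figure D5:**
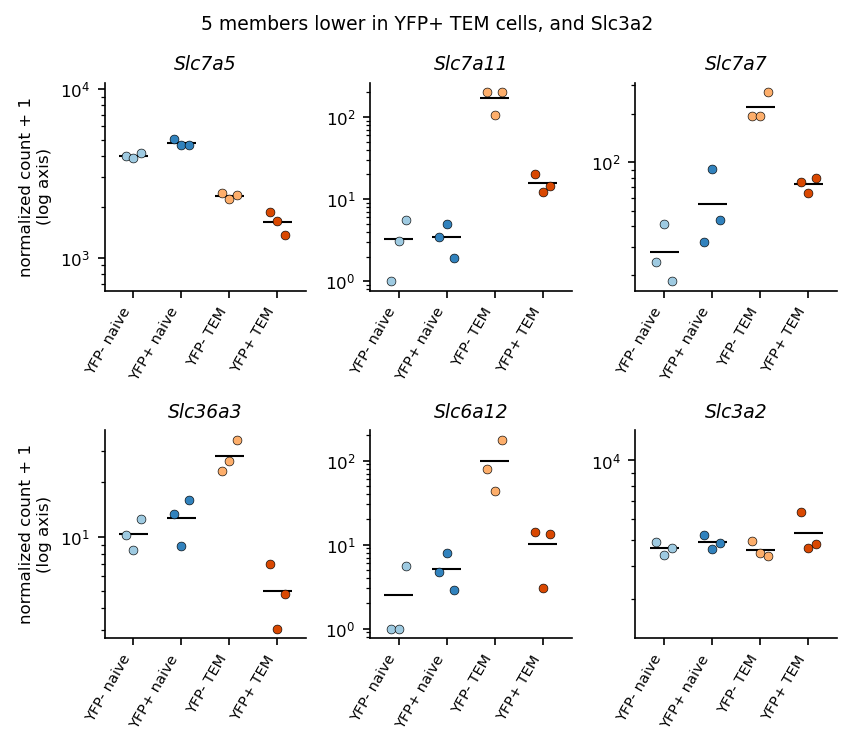
Normalized counts plus 1 (log axis, with its own range in each panel) of the 5 members called lower in YFP+ TEM cells and of Slc3a2, points for libraries and lines for means of 3. YFP- and YFP+ TEM points do not overlap in the 5 panels and overlap in that of Slc3a2.

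In naive cells no member differed between YFP+ and YFP- cells, where 0.00642% of all tested genes were higher and 0% lower in limma. At an unadjusted p under 0.05 in limma there were 5 higher members (Slc38a1, Slc7a5, Slc7a7, Slc7a8 and Slc6a8) and 3 lower ones (Slc43a1, Slc6a19 and Slc6a13). The shares above are for adjusted p. The share of all tested genes at that unadjusted p was not computed, so these 2 counts cannot be read as many or few. edgeR and DESeq2 also called none. Slc7a5 was at 5074, 4644 and 4677 in YFP+ naive and 3986, 3866 and 4161 in YFP- naive libraries, higher in 3 of 3 (log2 fold change 0.26, unadjusted p = 0.0241, adjusted p = 1).

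Whether YFP status went with a different change in TEM than in naive cells was tested as an interaction. It was called for 5 of 36 members, all with a negative sign (13.9%, where 2.73% of all tested genes were negative and 0.828% positive). These were again Slc7a5 (log2 difference of the fold changes -0.79, SE 0.14, adjusted p = 0.0100), Slc36a3 (-2.82, 0.64, 0.0299), Slc7a7 (-2.51, 0.57, 0.0307), Slc7a11 (-3.71, 0.89, 0.0393) and Slc6a12 (-4.76, 1.19, 0.0480). The interaction and the TEM comparison share the YFP- and YFP+ TEM libraries. For Slc7a5 the call held without any 1 library, and was lost without replicate 2 in all populations (adjusted p = 0.0752). That of Slc7a7 was lost without any 1 of YFP- naive replicates 1 and 3, YFP- TEM replicates 1, 2 and 3 and YFP+ TEM replicates 1, 2 and 3 (adjusted p = 0.0555 to 0.102). That of Slc7a11 was lost without any 1 of YFP- naive replicates 1 and 2, YFP+ naive replicates 1 and 2, YFP- TEM replicates 1 and 3 and YFP+ TEM replicates 1, 2 and 3 (adjusted p = 0.0599 to 0.121). Slc36a3 lost its call without any 1 of YFP- naive replicates 1, 2 and 3, YFP+ naive replicates 1 and 3, YFP- TEM replicates 1, 2 and 3 and YFP+ TEM replicates 2 and 3 (adjusted p = 0.0519 to 0.0996), and Slc6a12 without any 1 of YFP- naive replicates 1 and 2, YFP+ naive replicates 1, 2 and 3, YFP- TEM replicates 1 and 3 and YFP+ TEM replicates 1, 2 and 3 (adjusted p = 0.0524 to 0.146). Between 1 and 4 members were called when 1 library or replicate 2 was left out. Without YFP+ naive replicate 2 there were 3, Slc6a12 (adjusted p = 0.0977) and Slc7a11 (0.0822) being lost.

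Genes that act with these carriers were counted from lists of related genes. Of 39 genes of mTORC1 amino acid sensing, 11 were higher and 14 lower in TEM than in naive cells, where 34.2% of all tested genes were higher and 25.4% lower, as for the lists that follow. Sesn2, which senses leucine and restrains mTORC1, rose from 212 ± 35.4 in YFP- naive to 1347 ± 382 in YFP- TEM cells. In YFP+ cells the rise was smaller, from 253 ± 7.59 in naive to 492 ± 115 in TEM cells. The contrast averaged over YFP status gave 1.78 for Sesn2 on the log2 scale (SE 0.16, adjusted p = 8.52e-07) and 1.61 for Fnip2, which rose as well. Itfg2 (-0.66) and Sesn1 (-0.64) were the largest falls. Between YFP+ and YFP- TEM cells only Sesn2 of this list was called, at 492 ± 115 against 1347 ± 382 (log2 fold change -1.44, SE 0.22, adjusted p = 0.00169), and its interaction was called too (-1.70, adjusted p = 0.0109).

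Of 21 tested genes of the amino acid starvation response, 9 were higher and 5 lower in TEM cells, near those shares. The hormone gene Stc2 was at 0 in all naive libraries and at 216 to 435 in TEM libraries, at least 92.6-fold higher against 3 reads per naive library. Atf3 rose (log2 fold change 4.45, SE 0.67, adjusted p = 9.55e-05). The feedback inhibitor Trib3 fell from 414 ± 31.98 in YFP- naive to 71.6 ± 6.88 in YFP- TEM cells. In YFP+ cells Trib3 fell from 339 ± 24.8 in naive to 95.9 ± 14.2 in TEM cells. The contrast averaged over YFP status gave -2.17 for Trib3 on the log2 scale (SE 0.13, adjusted p = 2.04e-08). The stress factor Ddit3 fell by less (-0.53). Within TEM cells, Sesn2 and Eif2ak4, the kinase that senses amino acid shortage (log2 fold change -0.47, SE 0.12, adjusted p = 0.0388), were lower and Cebpb was higher (log2 fold change 0.73, SE 0.16, adjusted p = 0.0133) in YFP+ cells. Of 23 cytosolic aminoacyl-tRNA synthetase genes and their cofactors, which load amino acids onto tRNA, 12 were lower in TEM cells, led by Cars (-1.06) and Mars1 (-0.60), and only Vars was higher (0.42), beside the 25.4% and 34.2% of all tested genes. None of them was called between YFP+ and YFP- TEM cells.

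Of 42 tested genes of amino acid metabolism, 17 were higher and 11 lower in TEM cells, near the 34.2% and 25.4% of all tested genes. Bcat1, which starts the breakdown of leucine, isoleucine and valine, was at 20.5 ± 2.57 in YFP- naive and 334 ± 36.8 in YFP- TEM cells. The contrast averaged over YFP status gave 3.87 for Bcat1 on the log2 scale (SE 0.21, adjusted p = 9.01e-09). Asparagine synthetase Asns rose similarly in that contrast (log2 fold change 3.45). Gpt (-0.80) and Srm (-0.71) were the largest falls among the more abundant genes. Only Shmt1 was called between YFP+ and YFP- TEM cells (log2 fold change -0.60, SE 0.15, adjusted p = 0.0306). Among 18 genes listed as transporters of other families, 8 were higher and 5 lower in TEM cells, beside the same 34.2% and 25.4%. That list also holds Slc17a9, a carrier of nucleotides. The lysosomal histidine and peptide carrier Slc15a3 (log2 fold change 4.65, SE 0.47, adjusted p = 2.95e-06) and the mitochondrial aspartate and glutamate carrier Slc25a13 (2.59) rose most, and Slc17a9 (-1.42) and Slc25a22 (-0.70) fell most. The lysosomal cysteine carrier Mfsd12 was lower in YFP+ TEM cells, at 185 ± 10.2 against 413 ± 179.8 (log2 fold change -1.07, SE 0.25, adjusted p = 0.0210). Over these 5 lists no gene was called between YFP+ and YFP- naive cells.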

How the data were processed

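RNA of 12 libraries of sorted CD4+ T cells (4 populations, 3 libraries each) was sequenced with a stranded total RNA kit. The authors aligned reads to mm10 with DRAGEN, counted them on genes with Rsubread and divided the counts by DESeq2 size factors. The deposited signal is these normalized counts. The annotation, strand setting and tool versions are not given in the sources used here. Multiplied by the size factor, 100% of values came out whole (tolerance 1e-06), and these recovered reads entered edgeR and DESeq2. No column was left unused (0). A further marker used in the sort is not reported here.

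Entrez identifiers were matched to RefSeq symbols (GRCm38.p6), which named 16749 of 17523 genes. Exon lengths came from GENCODE M21. The 15587 genes that reached 5 normalized counts in 3 or more libraries were fitted in limma 3.58.1 (R 4.3.3) on log2 of the value plus 1, with 4 group means and eBayes with a trend. Fold changes on this scale understate those of low genes. The Benjamini-Hochberg adjustment ran over all tested genes. The procedure was tested on simulated counts of independent libraries with a single dispersion, with changes planted only in more abundant genes. That test did not cover libraries paired by replicate number, or changes of low members such as Slc36a3 and Slc1a2. The members, the gene lists and the tests were chosen with earlier results of these data known. Members were named in full when they averaged at least 50 normalized counts and differed at least 2-fold between TEM and naive cells, when a comparison by YFP status or the interaction called them, or when they belonged to 12 carriers known from T cells. Others are given briefly. Of the related lists, the 2 largest called changes in each direction among genes averaging at least 50 normalized counts are named, and further list genes were chosen after their values were seen.

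YFP+ and YFP- libraries that share a replicate number deviated together from their group means, with correlations of 0.306 to 0.491 in naive and 0.180 to 0.356 in TEM cells, against -0.351 to 0.0184 and -0.297 to -0.0360 for different numbers. The numbers therefore appear to pair the libraries in the comparisons by YFP status. The main fit did not use this pairing, and only the replicate block did. Between naive and TEM cells the same-number correlations were -0.0199 to 0.232. They were 0.137 to 0.232 for YFP- naive with YFP- TEM, against -0.155 to -0.0193 for different numbers. For YFP+ naive with YFP- TEM they were 0.104 to 0.212 against -0.142 to 0.0147, and for YFP- naive with YFP+ TEM 0.0646 to 0.176 against -0.164 to 0.0250. Only YFP+ naive with YFP+ TEM overlapped (-0.0199 to 0.204 against -0.167 to 0.0781). The comparison of TEM with naive cells and the interaction may thus be partly paired too. Alternatives were 0.1 or 5 added before the log, filtering on a mean of 10 or not at all, quantile or TMM scaling, the replicate block, no variance trend, edgeR 4.0.16, DESeq2 1.42.0, a fit of the 6 libraries compared, a fold requirement and leaving out each library. Leaving out replicate 2 of all populations was added after seeing the data.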

Additional observations from a re-analysis of the deposited data

Results flagged for a closer look

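For 5 members the change between YFP+ and YFP- cells differed between TEM and naive cells by the interaction test in limma. The log2 difference was -2.82 for Slc36a3, -4.76 for Slc6a12, -3.71 for Slc7a11, -0.79 for Slc7a5 and -2.51 for Slc7a7. In naive cells the YFP+ against YFP- log2 fold changes of these members were 0.27, 1.41, 0.31, 0.26 and 0.93, none past the threshold. Some of these interaction calls were lost under other settings. Those of Slc6a12 and Slc7a11 were lost in edgeR (adjusted p = 0.139 and 0.107) and with no variance trend (0.0809 and 0.0526). Those of Slc36a3 and Slc6a12 were lost with quantile scaling (0.117 and 0.0733). With 0.1 added before the log, Slc36a3 (0.0638), Slc6a12 (0.110) and Slc7a11 (0.254) lost theirs. Slc6a12 also lost its call with filtering on a mean of 10 (0.0536) and with TMM scaling (just over 0.05). With groups of 3 libraries no test for a single outlying library was made.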

How the results depend on the processing

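Calls rest on 3 libraries a population, and those of low members such as Slc6a12, Slc36a3 and Slc1a2 on few reads. No member was called between YFP+ and YFP- naive cells in any of 26 alternatives. Of the counts between TEM and naive cells, 24 of 25 alternatives for members higher and 19 of 25 for members lower came within 1.5 times of 15 and 7. Requiring an absolute log2 fold change of 2 gave 9 higher and 1 lower, one of 1 gave 3 lower, and quantile scaling gave 11 lower, adding Slc36a3, Slc38a6, Slc6a9 and Slc7a6os. Leaving out libraries gave 15 to 18 higher and 4 to 7 lower.

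Between YFP+ and YFP- TEM cells, members higher went from 0 to 1 with quantile scaling, in DESeq2 and with the 6 TEM libraries alone, to 2 with the replicate block, and to 0 to 2 without libraries. Members lower went from 5 to 3 with 0.1 added before the log and with an absolute log2 fold change of 2, to 7 with the replicate block and to 3 to 6 without libraries. The interaction count went from 5 to 2 with 0.1 added, to 3 with quantile scaling, with no variance trend and in edgeR, to 6 with the replicate block and to 1 to 4 without libraries. The block changed no other call than those named in the report and that of Slc6a6 in the interaction (adjusted p = 0.0477). The cause of these moves was not tested.

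Among members described in full or called under any setting, values of 12 that were not called with all libraries turned sign under some alternatives. For TEM against naive cells with quantile scaling, the log2 fold changes were -0.77 for Slc1a4, -0.0023 for Slc36a1, -0.45 for Slc38a5, -0.65 for Slc7a2, -0.49 for Slc7a8 and -1.19 for Slc6a9, which passed the threshold (adjusted p = 0.0290). Slc7a2 was -0.298 in edgeR and -0.297 in DESeq2. Slc36a3 was -1.28 with quantile scaling, where it passed the threshold (adjusted p = 0.0132), -0.049 with 0.1 added, -0.0097 with TMM, -0.037 in edgeR and -0.016 in DESeq2. Without libraries, Slc1a4 ranged from -0.66 to 0.50, Slc36a3 from -0.13 to 0.17, Slc38a9 from -0.24 to 0.11, Slc6a9 from -0.33 to 0.30 and Slc3a2 from -0.032 to 0.079. Between YFP+ and YFP- TEM cells, Slc1a4 was 0.31 in edgeR and 0.27 in DESeq2, and Slc38a1 -0.066 with quantile scaling. Without libraries, Slc1a4 ranged from -1.46 to 0.54, Slc38a1 from -0.046 to 0.057, Slc38a2 from -0.31 to 0.037 and Slc7a1 from -0.013 to 0.11. Leaving out replicate 2 of all populations was chosen after seeing the data, and with it Slc38a5 (adjusted p = 0.0227) and Slc7a2 (0.0320) were called higher in YFP+ TEM cells.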
